A study of Homo sapiens with 8 samples.

Results

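Aminoacyl-tRNA synthetases are the enzymes that join each amino acid to its transfer RNA. They were taken from the deposited gene table by symbol, which gave 37 of 20323 genes. Of these, 20 encode cytosolic enzymes and 17, whose symbols end in 2, encode mitochondrial ones. The symbol rule leaves out EPRS1, the fused glutamyl-prolyl enzyme of the cytosol, and PARS2, the mitochondrial prolyl enzyme, and both are given separately below. SARS2 has 2 entries in the table, and the entry ENSG00000269547 had no counts in any library, so 36 members passed the filter on low counts and were tested.

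Messenger RNA was measured in H2452, an established human cell line from a malignant pleural mesothelioma. Cells were kept for 48 h in 20 nM DPT (deoxypodophyllotoxin, a plant lignan that binds tubulin) or in the solvent DMSO, with 4 libraries in each group. The series describes the libraries as biological replicates and gives no culture day or batch. A single cell line was used, at 1 dose and 1 time.

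As background, each synthetase activates its amino acid with ATP and transfers it to the matching transfer RNA, which carries it to the ribosome. Mitochondria translate their own small set of messages with a separate set of nuclear-encoded synthetases, except that GARS1 and KARS1 each encode both the cytosolic and the mitochondrial form of their enzyme. In the cytosol several synthetases sit with scaffold proteins in the multisynthetase complex. Genes of many cytosolic synthetases are known targets of ATF4, the transcription factor that the kinases of eIF2 bring up when amino acids are short, and WARS1 is also known to be induced by interferon.

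Library totals were 14964432 to 17205391 counts, and the tested synthetases had 67 to 6875 counts in a library. DPT replicate 2 and DMSO replicate 3 (called the pair here) stood apart from the other 6 libraries on the first principal component, at 29.3 and 40.8 against -25.6 to -1.02. The pair holds 1 library of each group, so results are given from all 8 libraries, with a term for the pair, and from the other 6 libraries. The pair was picked by its expression in these same data. P-values with the term or from the other 6 libraries therefore leave out its difference from the rest, and can be too small. KRT8, an epithelial keratin, had 1018 to 2260 CPM (counts scaled to library size) and VIM, the mesenchymal filament vimentin, 4820 to 8069 CPM. The mesothelial marker MSLN was low at 10.4 to 17.6 CPM. PTPRC, which all leukocytes carry, was at most 0.54 CPM. The summed mesothelial or epithelioid markers were 2453 to 3821 CPM with DPT and 3586 to 5068 CPM with DMSO. Of the 12 tested among them 1 was called higher and 2 lower from all 8 libraries, beside 5.68% and 5.29% of all genes. With the term 3 were called higher and 7 lower, beside 16.9% and 17%. The summed sarcomatoid or mesenchymal markers were 7054 to 8301 CPM with DPT and 5213 to 6893 CPM with DMSO. The second sum is mostly VIM, which was called higher with DPT (0.46 log2, adjusted p = 0.0182), whereas COL1A2, COL3A1 and PDGFRB of the same 5 genes were called lower (-1.45 to -1.23 log2). The part of these markers in the differences between groups was not tested. In bulk RNA, fewer cells of a kind and less RNA per cell cannot be told apart.

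Cytosolic synthetase messages were several times more abundant than mitochondrial ones. Compared per length, in FPKM (fragments corrected for gene length and sequencing depth), the cytosolic genes had a median level of 73.0 over the 8 libraries and the mitochondrial genes one of 8.78. WARS1, the tryptophanyl enzyme, was the highest cytosolic member at 182 FPKM, followed by MARS1, the methionyl enzyme, at 172 FPKM. TARS3, a further threonyl enzyme of the cytosol, was the lowest cytosolic member at 3.18 FPKM. Mitochondrial levels ran between 3.77 FPKM for SARS2, the seryl enzyme, and 52.3 FPKM for IARS2, the isoleucyl enzyme.

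Of 14 amino acids with 1 gene for each compartment, 12 had the cytosolic gene above the mitochondrial one in every library. The ratio of the FPKM levels had a median of 28.2 for methionine, 26.9 for tryptophan and 25.8 for serine, and of 3.28 for arginine. The exceptions were cysteine, where CARS1 over CARS2 was 0.833 to 1.39 between libraries, and isoleucine, where IARS1 over IARS2 was 0.808 to 1.10. For cysteine the median ratio was 1.35, and CARS1 lay below CARS2 only in DPT replicate 2 and DMSO replicate 3. For isoleucine the median ratio was 1.03, so the compartments had about the same level of message. The cytosolic phenylalanyl enzyme is built of equal numbers of FARSA and FARSB subunits. The FARSA message was 3.06 to 4.20 times the FARSB message in FPKM. In counts scaled to library size alone, FARSA averaged 109 with DPT and 95.4 with DMSO, and FARSB 114 and 111. The ratio therefore rests on the gene lengths behind the deposited FPKM, which are not given.

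**Figure D1:**
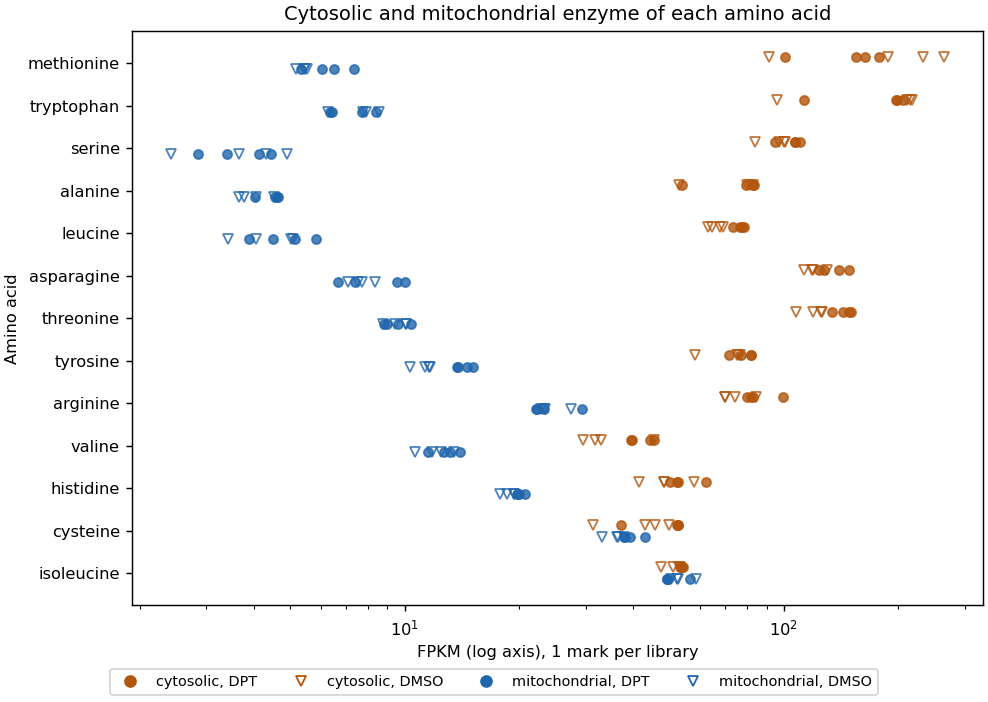
FPKM (log axis) of the cytosolic and the mitochondrial synthetase gene for 13 of the amino acids, with 1 mark per library. Cytosolic and mitochondrial marks overlap for cysteine and isoleucine and are separate for the others, and the cytosolic methionine gene spreads most between libraries.

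For some members reads cannot be assigned with certainty. MARS1 (chromosome 12, 57475445 to 57517569 of GRCh38) lies partly over DDIT3, a stress-response gene on the opposite strand. The spans of MARS1 and DDIT3 share 982 bases, within which exons of both overlap. Exons of MARS1 also overlap those of ARHGAP9 on the opposite strand, and 87.5% of the deposited MARS1 counts were fractional. Its FPKM per CPM varied 2.55-fold between libraries, against 1.10-fold for the median gene, and 1.93% of genes varied as much. MARS1 had 154, 178, 164 and 101 FPKM with DPT and 189, 232, 91.5 and 264 FPKM with DMSO, while its CPM varied less, so its rank among the synthetases is uncertain. HARS1 and HARS2, the cytosolic and mitochondrial histidyl genes, lie head to head on chromosome 5 with RefSeq starts 85 bases apart and share exon bases, and all deposited HARS1 counts were fractional. In all, 12 tested members overlap the exons of another gene, and the labels and headers do not say if counting used strand.

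The comparison of DPT with DMSO asks which synthetase messages differ after 48 h with a tubulin binder. From all 8 libraries 1 of 36 members passed the test (adjusted p under 0.05, edgeR), YARS2, the mitochondrial tyrosyl enzyme, which rose. That is 2.78% of the members, against 11% of all tested genes (5.68% higher and 5.29% lower). No member was called lower, and at an unadjusted p under 0.05 there were 5 higher and 0 lower, against 13.5% and 13% of all genes. DESeq2 called 2 higher (YARS2 and TARS1) and 0 lower, and limma 1 higher and 0 lower. The fold changes were small throughout, between -0.16 and 0.31 log2, and positive for 26 of 36 members. Their median was 0.090 log2 for cytosolic and 0.056 log2 for mitochondrial members, against -0.0017 log2 for all tested genes.

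YARS2 (ENSG00000139131, chromosome 12, 32727490 to 32755902 of GRCh38) had 28.9, 28.9, 30.3 and 31.1 CPM with DPT, against 22.2, 25.1, 24.1 and 25.1 CPM with DMSO. Every DPT library lay above every DMSO library, the pair included. The log2 fold change was 0.31 (SE 0.071, adjusted p = 0.0251), and 0.31 with the term for the pair (adjusted p = 0.0033). Without the term, the call of YARS2 was kept on leaving out DPT replicate 2 or DMSO replicate 3 and lost on leaving out any of the other 6 libraries (adjusted p of 0.0501 to 0.0834), whereas with the term it was kept in all 6 such fits. Groups did not overlap for 5 members, all higher with DPT (YARS2, HARS2, TARS1, FARSA and LARS1), against 18.2% of all tested genes in either direction (9.5% higher and 8.73% lower).

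With the term for the pair, 8 of 20 cytosolic members rose and 1 fell. The 8 are GARS1, TARS1, VARS1, FARSA, RARS1, LARS1, CARS1 and KARS1, which charge glycine, threonine, valine, phenylalanine, arginine, leucine, cysteine and lysine. That is 40.0% higher and 5.00% lower, beside 16.9% higher and 17% lower over all genes in the same fit. Over both compartments 11 of 36 members were called, or 30.6%, which is near the 34% of all genes. Every call was of modest size: the rises were 9.06% to 25.1%.

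VARS1, the valyl enzyme, had 144, 149, 136 and 129 CPM with DPT and 103, 102, 145 and 100.3 CPM with DMSO. All 4 DPT libraries lay above DMSO replicates 1, 2 and 4, while DMSO replicate 3 lay among the DPT libraries. Its log2 fold change was 0.32 (SE 0.061, adjusted p = 0.000703), and 0.42 in the other 6 libraries (adjusted p = 4.38e-06). The difference between DPT and DMSO was smaller within the pair than outside it by 0.39 log2, but the interaction was not called (adjusted p = 0.0717), nor was that of any other member, against 0.941% of all genes.

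GARS1, the glycyl enzyme, had 396, 317, 411 and 403 CPM with DPT and 352, 344, 265 and 356 CPM with DMSO. In each group the library of the pair was the lowest, and outside the pair the groups did not overlap. Its log2 fold change was 0.22 (SE 0.038, adjusted p = 0.000381), against an adjusted p of 0.275 with no term for the pair. TARS1, the main cytosolic threonyl enzyme, had 377, 353, 390.5 and 389 CPM with DPT and 339, 321, 287 and 342 CPM with DMSO. Its groups did not overlap in all 8 libraries, and its log2 fold change was 0.23 (SE 0.040, adjusted p = 0.000386). FARSA, one subunit of the cytosolic phenylalanyl enzyme, had 114, 115, 103 and 105 CPM with DPT and 91.2, 91.0, 102 and 97.6 CPM with DMSO. It was 14.5% higher with DPT (adjusted p = 0.0052). FARSB, its partner subunit, was 2.59% higher and did not pass the test (log2 fold change 0.037, SE 0.052, adjusted p = 0.624).

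QARS1, the glutaminyl enzyme, was the only cytosolic member called lower with the term for the pair. It had 67.4, 89.1, 71.2 and 71.3 CPM with DPT and 82.0, 77.1, 95.3 and 80.2 CPM with DMSO. Both libraries of the pair were the highest of their group, and in the other 6 libraries every DPT value lay below every DMSO value. The log2 fold change was -0.17 (SE 0.048, adjusted p = 0.014), and the call was lost without DMSO replicate 1 (adjusted p = 0.0579).

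QARS1 and 6 other members, among them IARS1, KARS1, LARS1, MARS1 and RARS1, belong to the multisynthetase complex. Of these 7, 3 were called higher (KARS1, LARS1 and RARS1) and 1 lower with the term for the pair. LARS1, the leucyl enzyme, had 279, 286, 293 and 297 CPM with DPT and 263, 269, 245 and 271 CPM with DMSO, and its log2 fold change was 0.14 (SE 0.041, adjusted p = 0.0141). RARS1 and KARS1 rose by 0.16 and 0.13 log2 (adjusted p = 0.00774 and 0.025). On leaving out 1 of the other 6 libraries with the term kept, KARS1 lost the call without DPT replicate 3, DMSO replicate 1 or DMSO replicate 2 (adjusted p of 0.0647 to 0.0769), CARS1 without DMSO replicate 1 or 2 (0.0646 and 0.0743) and LARS1 without DMSO replicate 1 (0.0507). The scaffold proteins AIMP1, AIMP2 and EEF1E1 did not pass the test with the term and all 8 libraries (adjusted p of 0.311, 0.386 and 0.0865). AARSD1, which shares similarity with the editing part of the alanyl enzyme, was called higher there (0.25 log2, adjusted p = 0.0484), and in 3 of 6 fits on leaving out a library. EPRS1, the complex's glutamyl-prolyl enzyme, was at 0.018 log2 and did not pass (adjusted p = 0.762). Of the 13 cytosolic members outside the complex 5 were called higher and 0 lower, and at an unadjusted p under 0.05 6 were higher and 0 lower, beside 21.6% and 21.9% of all genes at that p.

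**Figure D2:**
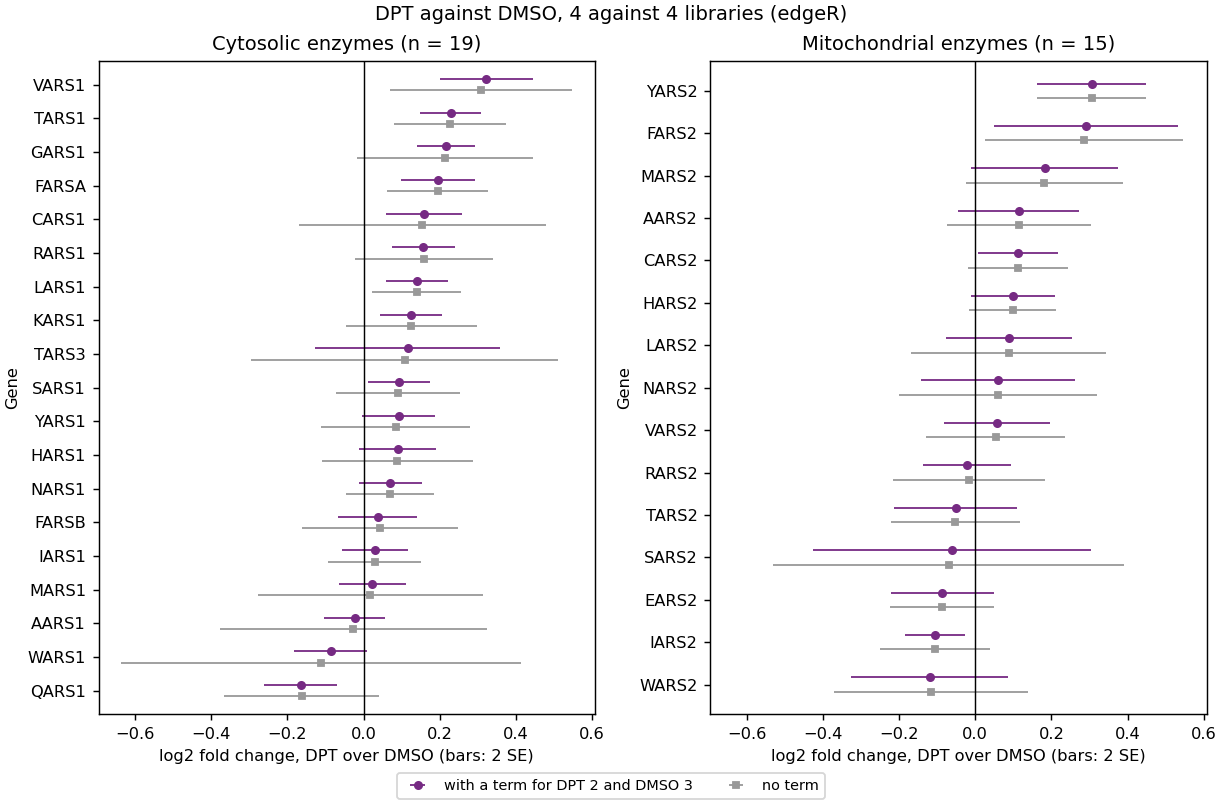
Log2 fold change of DPT over DMSO for tested members from edgeR, with bars of 2 SE, with a term for DPT replicate 2 and DMSO replicate 3 (purple) and without it (grey). The 2 estimates nearly coincide for each gene, and the bars with the term are shorter for members that differ between the pair and the other libraries, such as WARS1, AARS1 and CARS1.

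Among 16 mitochondrial members, the term for the pair left YARS2 as the only one called higher and IARS2, the isoleucyl enzyme, as the only one called lower. IARS2 had 173, 198, 171 and 171 CPM with DPT and 181, 188, 208 and 189 CPM with DMSO. The groups overlapped in all 8 libraries and were separate in the other 6. Its log2 fold change was -0.11 (SE 0.040, adjusted p = 0.0492), and the call was lost when any 1 of the other 6 libraries was left out (adjusted p of 0.0686 to 0.122). FARS2, the phenylalanyl enzyme, had 9.48, 9.29, 8.19 and 9.19 CPM with DPT and 6.77, 6.71, 8.93 and 7.19 CPM with DMSO. It was higher in the other 6 libraries (log2 fold change 0.38, adjusted p = 0.0455) and did not pass with all 8 (adjusted p = 0.194). PARS2 was at -0.14 log2 and did not pass (adjusted p = 0.672).

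In the other 6 libraries 9 members were called higher and 3 lower, or 33.3%, against 34.1% of all tested genes (17% higher and 17.1% lower). The cytosolic calls were 7 higher and 2 lower, and the mitochondrial ones 2 higher and 1 lower. CARS1, called with the term, was not called there (adjusted p = 0.0542). WARS1 was called lower there, by 0.15 log2 (adjusted p = 0.00891), and not with the term (adjusted p = 0.18).

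**Figure D3:**
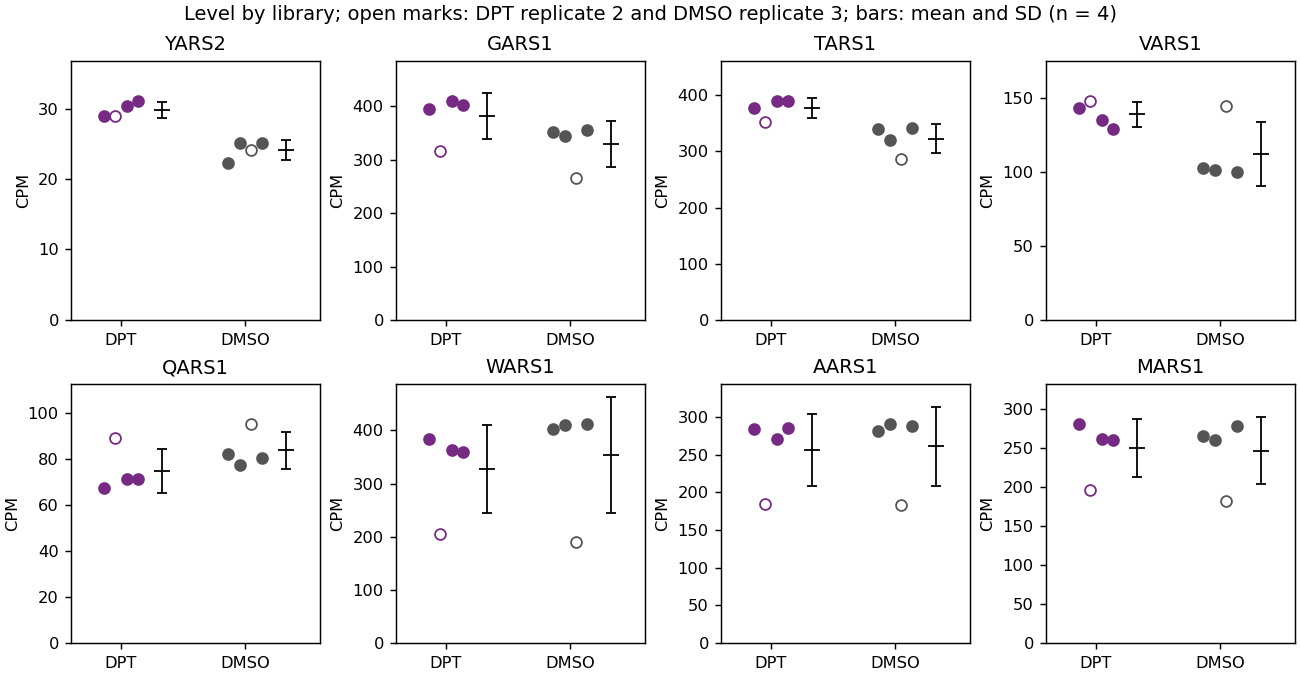
CPM of 8 members in each library, DPT left and DMSO right, with the mean and SD of 4 libraries beside the points. Open marks are DPT replicate 2 and DMSO replicate 3. They lie far below the rest for WARS1, AARS1 and MARS1, above it for QARS1, and within the group for YARS2.

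The largest differences in synthetase messages lay between the pair and the other 6 libraries and not between DPT and DMSO. They are given as a description, since these libraries were set apart by their expression. WARS1 had 383, 205, 363 and 359 CPM with DPT and 402, 410.5, 190.3 and 413 CPM with DMSO. DPT replicate 2 and DMSO replicate 3 were each far below the other 3 libraries of their group, and the pair averaged 0.97 log2 lower than the other 6. AARS1, the alanyl enzyme, had 284, 185, 271 and 285 CPM with DPT and 282, 291, 183 and 288 CPM with DMSO. It had the same pattern, at -0.62 log2, with no difference between the treatments beyond the spread (-0.024 log2, SE 0.040, adjusted p = 0.688 with the term). CARS1, the cysteinyl enzyme, had 131, 89.6, 126 and 127 CPM with DPT and 114, 109, 76.8 and 126 CPM with DMSO, and it was 0.56 log2 lower in the pair. The other members for which both libraries of the pair lay below all of the other 6 were MARS1 at -0.50, GARS1 at -0.37, LARS2 at -0.35, YARS1 at -0.28 and SARS1 at -0.23 log2.

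In all, 16 members were lower in the pair on average. Both libraries of the pair lay below all of the other 6 for 8 members and above all of them for 11. Over all tested genes those shares were 17% and 17.4%. The 8 lower ones were 7 cytosolic genes and LARS2. The 11 higher ones included TARS3 (0.55 log2), VARS1, QARS1, FARSB, HARS1, RARS1 and KARS1 of the cytosol and RARS2, VARS2 and IARS2 of the mitochondria. The cytosolic set therefore split, and 6 of its 20 members differed by less than 0.2 log2. The median absolute difference of all members was 0.23 log2, and that of all genes 0.21 log2.

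**Figure D4:**
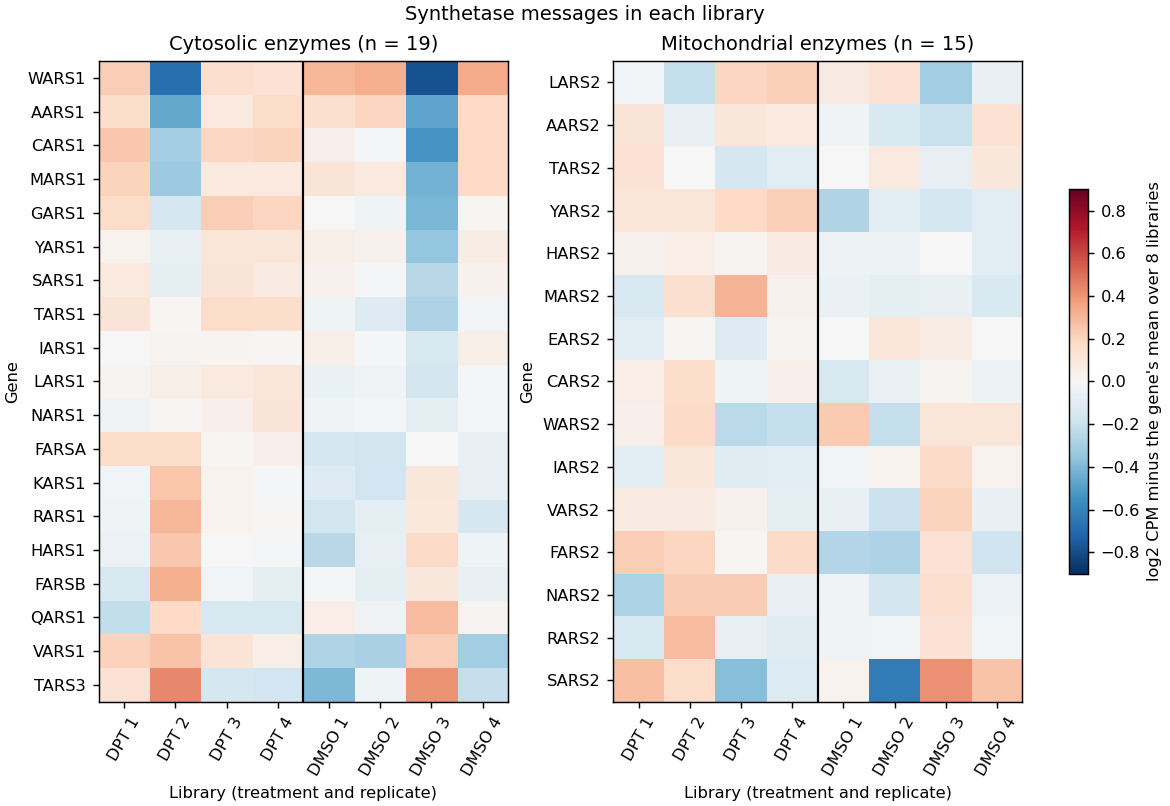
Log2 CPM of tested members minus the gene's mean over 8 libraries, DPT left of the line and DMSO right, with genes ordered by the difference between the pair and the other libraries. DPT 2 and DMSO 3 are blue for WARS1, AARS1, CARS1, MARS1 and GARS1 at the top left and red for TARS3, VARS1, QARS1 and others further down.

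Genes of related programmes also differed in the pair. Of 14 tested interferon genes, all were lower in the pair, with a median of -1.97 log2, against -0.0071 log2 for all tested genes. Between DPT and DMSO 0 were called in either direction from all 8 libraries, by edgeR (also at an unadjusted p under 0.05), DESeq2 or limma. The edgeR share over all genes was 11%. With the term for the pair 0 of the 14 were called higher and 5 lower, beside 16.9% and 17% of all genes. Among the 5 was MX1, an antiviral GTPase (-0.35 log2, adjusted p = 0.00053). In the other 6 libraries 3 were called higher and 5 lower, beside 17% and 17.1% of all genes. Of 29 tested ATF4 genes outside the synthetases, 24 were lower in the pair, with a median of -0.38 log2, against the same -0.0071 log2. ATF4 itself had 279, 225, 284 and 274 CPM with DPT and 252, 264, 171 and 258 CPM with DMSO. ASNS, the asparagine synthetase that is a standard ATF4 target, had 74.0, 54.8, 81.7 and 73.0 CPM with DPT and 70.7, 74.0, 38.5 and 71.2 CPM with DMSO. For both, the library of the pair was the lowest of its group. The monocyte marker CD14 was also lower there, at 5.39 CPM in DPT replicate 2 and 7.42 CPM in DMSO replicate 3, against 14.3 to 26.3 CPM in the others. Their part in the synthetase differences was not tested.

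Promoter windows from RefSeq (GRCh38.p14), 250 bases before to 50 after an annotated start, were matched for 28 of the 36 symbols. The core of the C/EBP-ATF element, TGATGNAA on either strand, which ATF4 dimers are known to bind, was present for 7 of 15 cytosolic members and 1 of 13 mitochondrial ones, against 4.46% of all genes with a window. The 8 matches are shown to give their place and letters, and the motif was chosen with the values of these genes known, so nothing is read from its presence. Each is a 30-base stretch in the 5′ to 3′ direction of the gene with the core, or its reverse complement, in capitals.
AARS1 (chr16:70289675-70289704, minus strand): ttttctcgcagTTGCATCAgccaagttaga
CARS1 (chr11:3057407-3057436, minus strand): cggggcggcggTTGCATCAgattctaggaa
GARS1 (chr7:30594834-30594863, plus strand): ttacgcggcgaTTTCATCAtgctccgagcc
IARS1 (chr9:92293692-92293721, minus strand): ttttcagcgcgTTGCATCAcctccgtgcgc
MARS1 (chr12:57488053-57488082, plus strand): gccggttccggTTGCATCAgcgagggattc
NARS1 (chr18:57621804-57621833, minus strand): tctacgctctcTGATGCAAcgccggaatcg
TARS1 (chr5:33440956-33440985, plus strand): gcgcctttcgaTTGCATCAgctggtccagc
YARS2 (chr12:32756076-32756105, minus strand): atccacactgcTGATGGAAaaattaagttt

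All but GARS1 and YARS2 carry the same 8 bases, on one strand or the other. The core begins 187 bases before a RefSeq start for AARS1 and 197 before it for YARS2, 33 before it for GARS1 and 13 before it for IARS1. It spans or follows the start for CARS1, MARS1, TARS1 and NARS1. The 7 cytosolic genes with the core differed between the pair and the other libraries by -0.62 to -0.049 log2, with a median of -0.37. YARS2 was at -0.034 log2. The 8 cytosolic genes with a window and no core ran from -0.97 to 0.30 log2, with a median of 0.25, and 2 of them were lower in the pair. The motif was chosen with these values known, so nothing is read from their difference. For AARS1, CARS1, GARS1 and MARS1 both libraries of the pair lay below all of the other 6, and for IARS1, NARS1 and TARS1 they did not. A match is a description of the letters in the window, and factor binding was not measured.

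WARS1, the member farthest below in the pair, had no such core in its window and held 2 other motifs. One is the core of the interferon-stimulated response element, found in 4.38% of genes and for EARS2 as the only other member. The other is TTCNNNGAA, the gamma-activated site of interferon signalling, found in 9.38% of genes and also for CARS1, TARS1 and WARS2. These motifs were also chosen with the values known, so nothing is read from their presence. Both are shown with the motif in capitals.
WARS1 response element (chr14:100375384-100375413, minus strand): ttttcagaaggGAAACTGAAAgaaagaggg
WARS1 gamma-activated site (chr14:100375471-100375500, minus strand): agctcaagtgtTTCTGAGAAtctgggtgat

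EARS2, the mitochondrial glutamyl enzyme with the other match, differed by 0.051 log2 between the pair and the other libraries. The part of the motif in either gene was not tested. The E-box CACGTG was present for 4 of 28 members (IARS1, CARS2, EARS2 and MARS2), against 8.77% of genes.

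**Figure D5:**
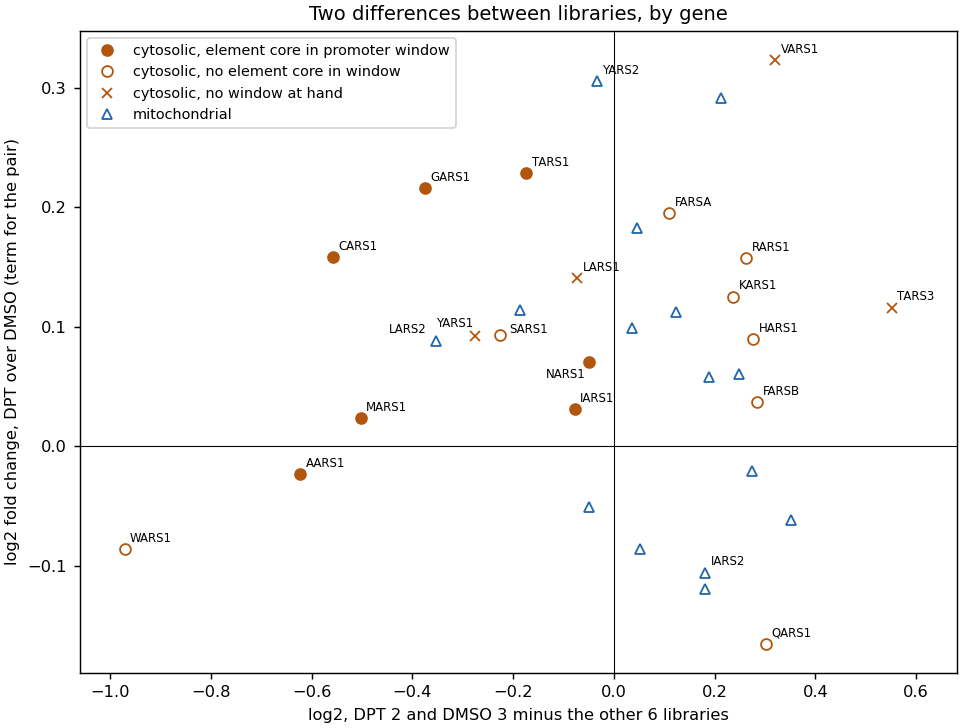
Tested members by their log2 difference between DPT replicate 2 with DMSO replicate 3 and the other 6 libraries (horizontal) and their log2 fold change of DPT over DMSO with a term for the pair (vertical). Filled circles are cytosolic genes with the C/EBP-ATF core in the promoter window, a motif chosen with these values known, and they lie left of 0 on the horizontal axis and between -0.024 and 0.23 on the vertical one.

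Other genes of the pathway were read against the same background of 5.68% higher and 5.29% lower in all 8 libraries, and of 16.9% higher and 17% lower with the term for the pair. At an unadjusted p under 0.05 those shares were 13.5% and 13%, and with the term 21.6% and 21.9%. No share over all genes was taken for DESeq2 or limma. Of 20 tested genes for RNA polymerase III, which transcribes transfer RNA genes, and its factors, 5 rose and 0 fell. At an unadjusted p under 0.05 edgeR had 7 higher and 0 lower, and DESeq2 and limma each called 5 higher and 0 lower. The fit with that term called 9 higher and 0 lower. POLR3G, an alternative subunit of the polymerase, had 38.2, 28.0, 42.4 and 45.8 CPM with DPT and 22.6, 22.4, 21.6 and 25.1 CPM with DMSO. The groups did not overlap, and the log2 fold change was 0.75 (SE 0.14, adjusted p = 0.0105). POLR3E, a further subunit, rose by 0.32 log2 (adjusted p = 0.012), and POLR3A, POLR3C and POLR3D were the others called.

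Genes for the steps before and after charging had few calls from all 8 libraries. Of 25 tested entries for tRNA maturation and export 0 rose and 1 fell, TSEN15, a subunit of the tRNA splicing endonuclease (log2 fold change -0.29, adjusted p = 0.0262). At an unadjusted p under 0.05 3 were higher and 1 lower, against 13.5% and 13% of all genes. With the term for the pair 5 were called higher and 1 lower, among them RTCB, the catalytic subunit of the tRNA ligase (0.20 log2, adjusted p = 0.00655), and XPOT, the nuclear exporter of transfer RNA (0.16 log2, adjusted p = 0.0128), and in the other 6 libraries 4 were called higher and 2 lower. EEF1A1, which brings charged transfer RNA to the ribosome, fell by 0.20 log2 (adjusted p = 0.0479), as the only call among 6 cytosolic elongation factors. That call was not made by limma (adjusted p = 0.0559) or with no filter on low counts (0.0624). The 4 mitochondrial elongation factors, the 4 genes that make mitochondrial glutaminyl-tRNA and formyl-methionyl-tRNA, and DTD1 and DTD2, which remove wrongly attached D-amino acids, had no call from all 8 libraries, also at an unadjusted p under 0.05, and none with the term for the pair, where 1 was higher and 1 lower at an unadjusted p under 0.05 (QRSL1 and GFM1). In the other 6 libraries GFM1, a mitochondrial elongation factor, was called lower (-0.18 log2, adjusted p = 0.00991).

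PPP1R15A, which directs a phosphatase to eIF2 and so ends the stress signal, had 158, 119, 187 and 156 CPM with DPT and 67.7, 71.4, 49.5 and 73.1 CPM with DMSO. All DPT libraries lay above all DMSO libraries, and the log2 fold change was 1.24 (SE 0.16, adjusted p = 0.00198). It was the only call among 8 genes for eIF2 kinases and phosphatase subunits from all 8 libraries. In that list 2 were higher and 2 lower at an unadjusted p under 0.05, beside 13.5% and 13% of all genes. DESeq2 called 1 higher and 1 lower. Including the term, 2 were called higher (PPP1R15A and EIF2AK3) and 3 lower (EIF2AK1, EIF2AK2 and IMPACT), as in the other 6 libraries. Of the 29 ATF4 genes 4 rose from all 8 libraries, among them ATF3, a stress-induced transcription factor (log2 fold change 1.42, adjusted p = 0.000231), and SESN2, a leucine sensor (0.99, adjusted p = 0.00281). A further 3 fell, among them SLC38A2, a transporter of neutral amino acids (-0.56, adjusted p = 0.0382), and SLC7A11, the cystine transporter (-0.24, adjusted p = 0.0405). Once the term was included, 13 of the 29 were called higher and 6 lower, and in the other 6 libraries 12 and 7. Of the 4 genes named here that fell, EEF1A1, SLC38A2 and SLC7A11 lost the call on leaving out any 1 of the 6 libraries outside the pair, and TSEN15 on leaving out 5 of them. With the term for the pair all 4 were called (adjusted p of 5.1e-08 to 0.00213). Between DPT and DMSO the called changes of ATF3, SESN2 and SLC38A2 were each larger than that of any synthetase. The largest of a synthetase was that of VARS1, at 0.32 log2 with the term for the pair and 0.42 log2 in the other 6 libraries. The change of SLC7A11 was smaller than either.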

How the data were processed

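Per the labels' protocols, polyadenylated RNA was selected with oligo(dT) beads and sequenced. The authors deposited, per the file headers and the values, 1 expected count and 1 FPKM value per gene and library, and 10.8% of the expected counts were not whole. The submitters' processing notes name RSEM, HISAT2, DESeq2, fastp 0.18.0 and StringTie 1.3.1 and the build hg38. Their roles and settings and the annotation release are not stated in the labels or headers.

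Expected counts were rounded and tested in edgeR 4.0.16 (R 4.3.3) by its quasi-likelihood test with TMM scaling and filterByExpr defaults (minimum count 10, minimum total 15), which kept 12648 genes. P-values were adjusted by Benjamini-Hochberg over these genes, and calls are at 0.05. The main fit has treatment only. A term for the pair, a fit on the other 6 libraries, limma 3.58.1, DESeq2 1.42.0 and other alternatives are compared in the closing section. At 1 CPM the smallest library holds 15 counts. P-values without a term measure the spread between libraries, and those with the term only the spread left after the difference of the pair is removed. The edgeR test without a term was checked on counts simulated with 1 common dispersion and no difference between the pair and the other libraries. The check therefore does not cover the spread that the pair brings, and the other fits were not checked. Coordinates were taken from GENCODE 29 on GRCh38, on which all 37 members matched by ID.

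The members, gene lists, motifs and tests were chosen with earlier results of these data known. Values by library are given for members called from all 8 libraries, WARS1 and GARS1, and the extremes in FPKM were also named. From each gene list, up to 2 called genes per direction with the smallest p were named. Members called with the term for the pair or lowest in the pair, the other POLR3 genes, genes of lists named with the term or in the other 6 libraries, ATF4, ASNS and the marker genes shown were named after their values were seen. A ranking of genes by likeness to WARS1 across libraries was not made, because the libraries form separate groups. A few genes are not reported here. The labels name no pairing of the libraries by replicate number.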

Additional observations from a re-analysis of the deposited data

Results flagged for a closer look

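In each group of 4 libraries, the highest or lowest CPM of each of 34 members was checked for a gap to the others beyond Dixon's 95% limit. Of 68 groups 15 had such a library. DPT replicate 2 was that library in 9 groups and DMSO replicate 3 in 6, and no other library was. In 4 members (AARS1, GARS1, WARS1 and RARS2) it held in both treatments. The groups share the same libraries and the pair was already set apart by its expression, so the counts are a description and no chance rate applies.

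Far below the others of its group, DPT replicate 2 had 185 CPM of AARS1, 89.6 CPM of CARS1, 317 CPM of GARS1, 205 CPM of WARS1 and 19.2 CPM of AARS2. DMSO replicate 3 was likewise low at 183 CPM of AARS1, 265 CPM of GARS1, 190.3 CPM of WARS1 and 141 CPM of YARS1. Far above the others, DPT replicate 2 had 120.2 CPM of HARS1, 209 CPM of RARS1, 198 CPM of IARS2 and 60.4 CPM of RARS2. DMSO replicate 3 was high at 145 CPM of VARS1 and 54.8 CPM of RARS2. The same 2 libraries stand apart over the whole transcriptome, and no label sets them apart.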

How the results depend on the processing

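The count of members called higher was 1 from all 8 libraries. It was 2 by DESeq2, 0 with the replicate block, 9 with the term for the pair and 9 in the other 6 libraries, and 0 to 2 when 1 library was left out. Members called lower were 0, against 2 with the term and 3 in the other 6 libraries. Cytosolic members called higher were 0, against 1 by DESeq2, 8 with the term, 7 in the other 6 libraries and 0 to 1 on leaving out 1 library. The single cytosolic call was VARS1 without DMSO replicate 3 and TARS1 without DPT replicate 2. Cytosolic members called lower were 0, against 1 and 2. Mitochondrial members called higher were 1, against 0 with the replicate block, 2 in the other 6 libraries and 0 to 1 on leaving out 1 library, and those called lower were 0, against 1 with the term and 1 in the other 6 libraries. With the term kept, leaving out 1 library gave 6 to 10 members higher and 0 to 1 lower, and 5 to 8 cytosolic members higher and 0 to 1 lower. Without DMSO replicate 1 these counts were lowest. Other scalings, limma and no filter on low counts changed none of these counts.

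The replicate block ended the call of YARS2 (adjusted p = 0.101). Same-numbered libraries deviated together in replicates 1 and 4 (r = 0.204 and 0.209) and not in 2 and 3 (-0.314 and -0.397). The libraries of the pair have different numbers and weigh on these values, so they cannot decide if the numbers pair the libraries. Of 400 single-gene values under alternatives 332 kept their direction and side of the threshold, 37 lost the call, 23 gained one and 8 changed sign. The sign changes were WARS1 to 0.058, TARS3 to -0.034 and EPRS1 to -0.0014 log2 without DPT replicate 2, EPRS1 to -0.0098 without DMSO replicate 2, and PARS2 to 0.010 without DMSO replicate 4. SARS2 changed to 0.0092 in the other 6 libraries, 0.039 without DPT replicate 3 and 0.064 without DMSO replicate 3. On leaving out 1 library, WARS1 ran between -0.32 and 0.058 log2, TARS3 between -0.034 and 0.29, SARS2 between -0.24 and 0.064, EPRS1 between -0.0098 and 0.047 and PARS2 between -0.24 and 0.010. None of these genes was called there, and the cause was not tested.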
